A study of Poecilia mexicana x Poecilia latipinna and Poecilia formosa with 28 samples.

Results

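The genes described here were counted at lower levels in the ovary of the clonal Amazon molly than in the ovary of first-generation hybrids, while their levels in brain and liver were close between the genotypes. They were chosen by their values in a table of 31997 genes, using CPM values (a gene's count per 1000000 counts of its library). A gene was taken if its lowest hybrid ovary was above its highest clone ovary, its hybrid ovary mean was at least 1 CPM, its ovary ratio (hybrid mean over clone mean, with 0.1 CPM added to each) was at least 2, and its brain and liver ratios lay between 0.67 and 1.5. In all, 316 genes met these conditions, and the 300 with the largest ovary ratio are described. The genotype differences of these genes in the 3 organs are therefore descriptions, and nothing is read from the counts of genes that a genotype test called.

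The clone was a laboratory line of Poecilia formosa from founders caught at Ciudad Mante, Mexico, kept in aquaria for over about 70 generations. The hybrids were 1 brood from a single Poecilia mexicana female crossed with a Poecilia latipinna male. All fish were untreated females, 3 months old, size matched and raised alike, with 4 clone fish (numbers 3, 4, 11 and 12) and 6 hybrid fish (4, 10, 11, 12, 13 and 14) in brain and liver. Ovary libraries came from the 4 clone fish and from hybrids 4, 10, 12 and 13. Each group was a set of siblings from 1 mother, so its spread is that among siblings of 1 clone or 1 brood and not among lines or crosses.

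P. formosa is an all-female species of hybrid origin that reproduces by gynogenesis: eggs form without meiotic reduction, and sperm of a related species starts their development without contributing genes. The ovary of mollies holds oocytes at successive stages, the follicle cells around them, stroma, vessels and blood, and in these livebearing fish embryos develop inside it. An mRNA measurement of whole ovary averages over all these cells, so fewer cells of a type and less RNA per cell cannot be told apart. Genes carry numeric IDs without names in the table, so they are described by level and by where else they were expressed, and the organ labels were not checked against marker genes. Libraries grouped by labelled organ: across genes, Pearson's r of log2(CPM + 1) was at least 0.914 between libraries of the same organ and at most 0.730 between organs. Total counts ran from 32460110 to 46316691 per library.

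The conditions narrowed the table in steps. No overlap between the ovaries, with the clone below, was found for 3340 genes, of which 2897 had a hybrid ovary mean of at least 1 CPM. Those 2897 were 15.7% of the 18440 genes at that level in hybrid ovary, and in 16.2% every clone ovary was above every hybrid ovary. A ratio of at least 2 left 786 genes. The brain window then kept 521 of them and the liver window 316. The last 3 genes kept had ratios of 2.05, 2.05 and 2.05, from hybrid means of 1.80, 6.53 and 3.54 CPM, and the first 3 left out by the limit of 300 had ratios of 2.05, 2.04 and 2.04. The 3 genes nearest below a ratio of 2 that met all other conditions stood at 2.00, 2.00 and 1.99, so the edge of the list separates nearly equal values.

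Most of the differences were moderate. The ovary ratio had a median of 2.95 and an upper quartile of 4.71, and 156 of the 300 genes lay under 3. A ratio of at least 5 was seen for 67 genes, at least 10 for 40 and at least 20 for 14. Hybrid ovary means ran from 1.005 to 697 CPM with a median of 6.42, against a median of 20.1 CPM over all 18440 genes at 1 CPM or more in hybrid ovary. Clone ovary means ran from 0.0116 to 92.3 CPM with a median of 1.49. Of the 300 genes, 125 were under 1 CPM in clone ovary, 64 under 0.5 and 13 under 0.1, but none was without a count in all 4 clone ovaries. The gene with the lowest clone level had 2 counts over the 4 clone ovaries and 273 over the 4 hybrid ovaries.

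**Figure D1:**
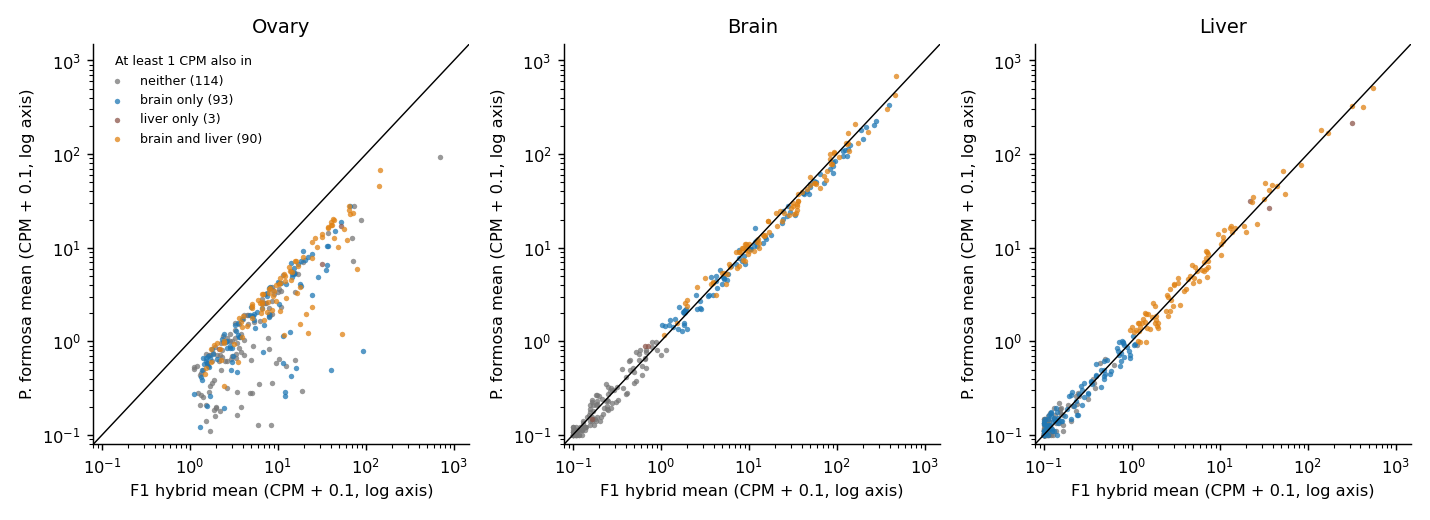
Mean level of each of the 300 genes in F1 hybrids (horizontal axis) and P. formosa (vertical axis), as CPM + 0.1 on log axes, in ovary, brain and liver. Points are genes, coloured by the other organs in which they had at least 1 CPM, and the line marks equal levels: all points lie below it in ovary and close to it in brain and liver, as the selection requires.

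In ovary the edgeR quasi-likelihood test across all genes called 294 of the 300 lower in the clone (Benjamini-Hochberg adjusted p under 0.05), where 13.1% of 22164 genes tested were called lower. This contrast chose the genes, so nothing is read from that count. With 0.1 CPM added to each value, the lowest hybrid ovary was a median of 1.81 times the highest clone ovary. It was at least 2 times for 121 genes and under 1.2 times for 42. The separation was thus wide for some genes and narrow for others.

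The summed level of the 300 genes was 1168, 1257, 1304 and 1223 CPM in the ovaries of clone fish 3, 4, 11 and 12. In hybrid fish 4, 10, 12 and 13 it was 4319, 4491, 5002 and 4708 CPM. The genes thus made up 0.117% to 0.130% of all ovary counts in the clone and 0.432% to 0.5002% in the hybrids, a ratio of the means of 3.74. A single gene held 15.0% of the summed hybrid level and the 10 most abundant held 33.0%. The median gene gives a picture without that weight: 1.30, 1.53, 1.53 and 1.47 CPM in the clone ovaries against 5.60, 5.47, 6.38 and 5.33 CPM in the hybrid ovaries. As mean and SD over the libraries this was 1.46 ± 0.108 CPM in the clone and 5.69 ± 0.469 in the hybrids (n = 4 each). The place of the clone ovaries below every hybrid ovary was fixed by the choice of genes.

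Outside the ovary the median gene stood at 3.31 ± 0.427 CPM in clone brain (SD, n = 4) and 3.33 ± 0.221 CPM in hybrid brain (n = 6). In liver it stood at 0.117 ± 0.0203 (n = 4) and 0.119 ± 0.0196 CPM (n = 6). Clone brain 11 had the lowest median of the brains, 2.69 CPM, and it lay 0.220 below its group on the log2 scale at the median gene. The median gene of the list was therefore at a moderate level in brain and barely counted in liver.

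**Figure D2:**
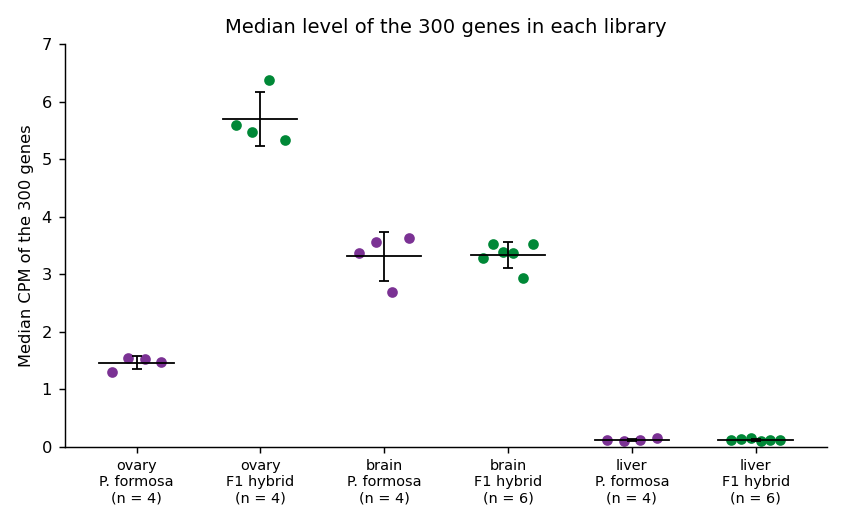
Median CPM of the 300 genes (vertical axis) in each of the 28 libraries by organ and genotype. Points are libraries, and lines and bars are group mean and SD. The clone ovaries lie between 1.30 and 1.53 CPM and the hybrid ovaries between 5.33 and 6.38, a separation fixed by the choice of genes. The genotypes overlap in brain and in liver.

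A ratio near 1 in brain or liver means little where a gene is hardly counted there, because 0.1 CPM was added to each mean. Both brain means were under 0.1 CPM for 53 of the 300 genes and under 1 CPM for 116, and both liver means were under 0.1 CPM for 139 and under 1 CPM for 205. The genes were therefore sorted by whether the average of the genotypes' means reached 1 CPM in brain and in liver. Of the 300, 114 reached it in neither organ, 93 in brain only, 3 in liver only and 90 in both. For the 114 genes of the first class, "in ovary alone" says only that their mean reached 1 CPM in hybrid ovary. Their clone ovary means had a median of 0.656 CPM. Their ratios in the other organs rest on levels that averaged under 1 CPM. For the 90 genes counted in all 3 organs, the difference was set against measurable levels in each.

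At least 1 CPM in clone brain or clone liver was found for 186 of the 300 genes, and 88 had it in both. These genes were thus counted in other organs of the clone, at levels close to those of the hybrids by the choice of the genes.

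Genes measured in neither brain nor liver were 38.0% of the list. They were 8.57% of the 18440 genes at 1 CPM or more in hybrid ovary, and 27.99% of the 786 genes that met the ovary conditions before the windows. The windows kept 52.7% of that class, 45.2% of the brain-only class, 15.0% of the liver-only class and 30.1% of the genes found in both organs, so the windows themselves raised its share. Level moved with it too: the class was 17.7% of the 6744 genes at 1 to 10 CPM in hybrid ovary and 3.31% of the 11696 genes above, against 48.7% of the 195 listed genes at 1 to 10 CPM and 18.1% of the 105 above. The list turned round (higher in the clone, same conditions, 300 of 362 genes) had 34.0% in neither organ, 46.3% in brain only and 18.3% in both, against 38.0%, 31.0% and 30.0% here. These shares were not tested against each other.

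In the class found in neither brain nor liver, the ovary ratio had a median of 3.54 and reached 64.0. The median gene of the class was at 0.757, 0.674, 0.719 and 0.706 CPM in the ovaries of clone fish 3, 4, 11 and 12, and at 4.13, 3.50, 3.39 and 3.51 CPM in those of hybrid fish 4, 10, 12 and 13. No clone ovary reached the lowest hybrid ovary, as the choice of genes requires.

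The class held the most abundant gene of the list, number 47 by ratio. It stood at 102, 92.4, 89.0 and 86.1 CPM in clone ovaries 3, 4, 11 and 12, and at 704, 711, 639 and 734 CPM in hybrid ovaries 4, 10, 12 and 13. The groups did not overlap, as the choice requires of every gene, and the ratio was 7.54. In brain it was at 0.179 ± 0.0832 CPM in the clone (SD, n = 4) and 0.316 ± 0.114 in the hybrids (n = 6), and in liver at 0.292 ± 0.352 and 0.263 ± 0.312. This gene was thus the most abundant of the list in the ovary of both genotypes and barely counted elsewhere. Its brain ratio, with 0.1 CPM added to each mean, was 1.49, with the clone lower. This was the highest brain ratio of the list, near the limit of 1.5. Its brain means were not far above the added 0.1 CPM. The largest ratio of the class, 64.0, belonged to a gene at 0.197 ± 0.111 CPM in clone ovary (n = 4) and 18.9 ± 4.10 in hybrid ovary (n = 4). In brain that gene was at 0.715 ± 0.356 CPM in the clone (n = 4) and 0.573 ± 0.260 in the hybrids (n = 6). Its clone mean was thus higher in brain than in ovary.

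In the brain-only class the median ratio was 2.95, and the median gene ran from 1.12 to 1.28 CPM over the clone ovaries and from 5.16 to 6.03 over the hybrid ovaries. Brain levels of the class had medians of 9.70 CPM in the clone and 10.2 in the hybrids. This class held the 2 largest ratios of the whole list, genes 103141447 and 103133557.

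Gene 103141447 had 0.442, 0.558, 1.09 and 0.648 CPM in clone ovaries 3, 4, 11 and 12, from 19, 24, 47 and 28 reads. In hybrid ovaries 4, 10, 12 and 13 it had 94.5, 100.3, 89.8 and 89.2 CPM, a ratio of 119. Every hybrid ovary was high and all within a narrow range. In brain the clone had 9.08, 9.33, 9.19 and 9.39 CPM, and the hybrids had 5.84 CPM at the lowest, 7.73 at the median and 9.77 at the highest. The brains overlapped only through hybrid 13, at 9.77 CPM, with the next hybrid at 8.18, and the brain ratio was 0.824. The clone counted this gene in brain at more than 10 times its ovary level, while the hybrids counted it most in ovary. In liver both genotypes were low, at 0.446 ± 0.257 CPM (SD, n = 4) and 0.631 ± 0.540 (n = 6).

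Gene 103133557 had 0.279, 0.767, 0.255 and 0.255 CPM in clone ovaries 3, 4, 11 and 12, with fish 4 above the others. Hybrid ovaries 4, 10, 12 and 13 had 52.8, 44.2, 34.1 and 29.5 CPM, a ratio of 82.3. Clone brains 3, 4, 11 and 12 had 17.4, 20.2, 8.54 and 17.8 CPM, and hybrid brains had 5.02 CPM at the lowest, 12.5 at the median and 16.9 at the highest. The brains overlapped here as well, and no read was counted in any of the 10 livers.

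**Figure D3:**
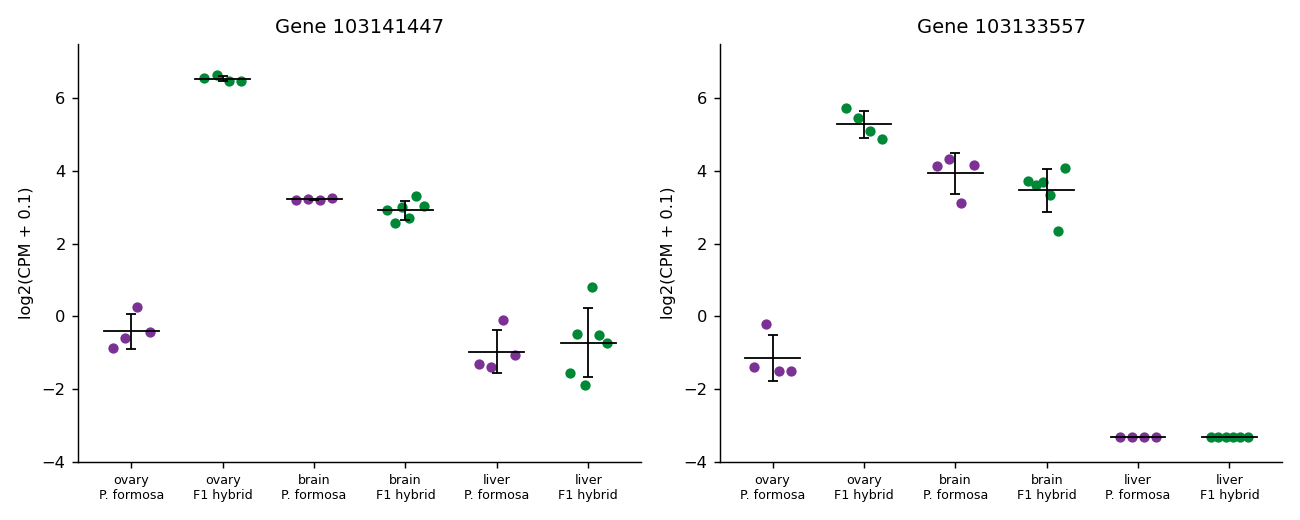
Level of genes 103141447 and 103133557 as log2(CPM + 0.1) (vertical axis) in each library of ovary, brain and liver by genotype. Points are libraries, and lines and bars are group mean and SD on that scale; clone ovaries lie far below hybrid ovaries for both genes, brains overlap, and gene 103133557 has no count in liver.

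A further gene of the brain-only class, number 9 by ratio, had the highest brain level among the 40 genes with a ratio of at least 10. Its clone ovaries 3, 4, 11 and 12 were at 0.279, 0.256, 0.348 and 0.440 CPM and its hybrid ovaries 4, 10, 12 and 13 at 14.9, 16.1, 11.5 and 13.1 CPM. Brain means were 94.4 ± 21.9 CPM in the clone (SD, n = 4) and 118 ± 13.6 in the hybrids (n = 6). In this gene brain exceeded ovary in both genotypes, by far more in the clone.

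The genes measured in both brain and liver had the lowest median ratio of the large classes, 2.61. Their median gene ran from 2.60 to 3.39 CPM over the clone ovaries and from 8.75 to 12.6 over the hybrid ovaries. Median levels were 19.3 CPM in clone brain and 20.8 in hybrid brain, and 4.61 and 4.65 in clone and hybrid liver.

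The largest ratio of this class, 45.4, was number 7 of the list. Clone ovaries 3, 4, 11 and 12 had 0.931, 0.9995, 1.28 and 1.13 CPM, and hybrid ovaries 4, 10, 12 and 13 had 56.3, 52.5, 51.2 and 54.8 CPM. In brain the clone fish had 30.3, 28.5, 26.9 and 31.99 CPM and the hybrids 34.1 at the lowest, 34.7 at the median and 35.7 at the highest. In liver the clone fish had 4.91, 3.13, 5.03 and 6.12 CPM and the hybrids 5.41 at the lowest, 7.16 at the median and 9.20 at the highest. The clone was thus also below every hybrid in brain for this gene, by a ratio of 1.18, and overlapped with the hybrids in liver.

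Abundant genes of other organs were also among the 90. The gene with the highest liver level of the list had 507 ± 40.4 CPM in clone liver (SD, n = 4) and 552.6 ± 237 in hybrid liver (n = 6). Its ovary levels were 3.42, 3.79, 2.74 and 2.87 CPM in clone fish 3, 4, 11 and 12 and 21.7, 18.8, 19.1 and 5.42 CPM in hybrid fish 4, 10, 12 and 13. Hybrid ovary 13 was far below the other hybrids and only a little above the clone. 

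The gene with the highest brain level had 686 ± 405 CPM in clone brain (n = 4) and 469.7 ± 49.5 CPM in hybrid brain (n = 6). Clone brain 11 was at 1273 CPM, above 408 to 641 CPM in the other clone brains. The gene's ovary means were 27.9 ± 7.36 CPM in the clone and 64.1 ± 37.1 in the hybrids (n = 4 each). The hybrid value rested on fish 12 at 119 CPM, above 41.5 to 54.1 CPM in the other 3.

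Only 3 genes were measured in liver and not in brain, with ratios from 2.60 to 4.82 and clone liver means from 26.6 to 215 CPM.

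**Figure D4:**
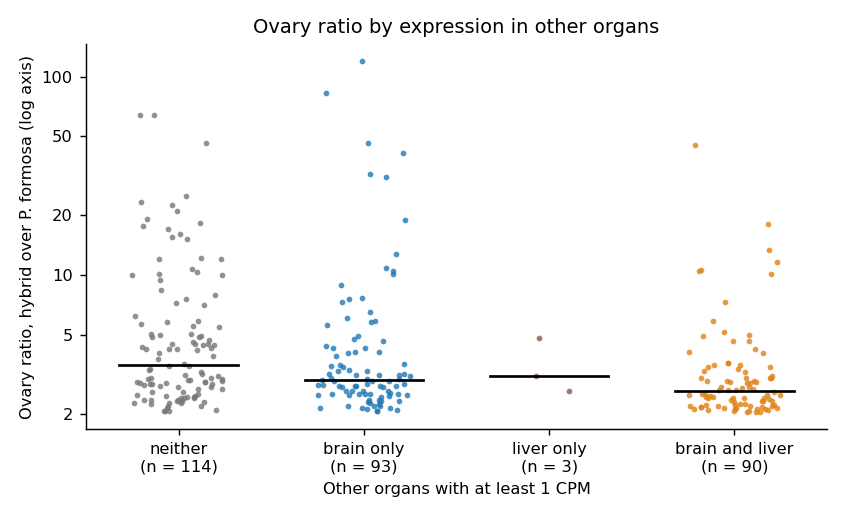
Ovary ratio, hybrid over P. formosa, on a log axis for each of the 300 genes, by the other organs in which the gene had at least 1 CPM. Points are genes and lines are medians: 3.54 for neither organ, 2.95 for brain only, 3.11 for liver only and 2.61 for brain and liver.

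The 40 genes with a ratio of at least 10 had a median of 10.6 CPM in hybrid ovary and 0.255 CPM in clone ovary, and 30 of them were under 1 CPM in the clone. In neither other organ were 22 of them measured, 11 were measured in brain only and 7 in both. The genes numbered 3 to 10 by ratio had ratios from 31.3 to 64.0, hybrid ovary means from 5.88 to 53.7 CPM and clone ovary means from 0.0290 to 1.09 CPM. The highest clone ovary mean among the 40 was 7.04 CPM.

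Where the genes were expressed within a fish was compared between organs of the same genotype. The choice did not use the difference between organs, but it used the levels in these libraries, so the counts are descriptions. In hybrids the edgeR quasi-likelihood test called 158 of the 300 genes higher in ovary than in brain and 100 lower (52.7% and 33.3%, against 41.0% and 41.5% of 23979 genes tested). Against liver, 216 were higher in ovary and 54 lower (72.0% and 18.0%, against 49.7% and 30.6%). The median log2 difference of the 300 genes was 1.24 for ovary over brain and 3.90 for ovary over liver, against -0.06 and 0.68 over all genes tested. Every gene of the list had at least 1 CPM in hybrid ovary and lay above the clone there by choice, and all 300 passed the filter on low counts, so nothing about the genes is read from the higher shares.

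In the clone 279 of the 300 genes passed the filter on low counts, and the other 21 were not tested. Of the 279, 89 were higher in ovary than in brain and 154 lower (31.9% and 55.2%, against 38.7% and 44.9% of 24008 genes tested). Against liver, 148 were higher in ovary and 96 lower (53.0% and 34.4%, against 48.3% and 32.8%). The median log2 difference was -1.33 for ovary over brain and 1.43 for ovary over liver, against -0.23 and 0.59 over all genes tested. The majority of the tested genes were thus above brain in the ovary of hybrids and below brain in the ovary of the clone, a shift whose direction the choice of genes fixes.

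By group means, the ovary was the highest organ for 169 of the 300 genes in hybrids and for 118 in the clone. These were 56.3% and 39.3% of the list, against 54.7% and 52.6% of the 18440 genes at 1 CPM or more in hybrid ovary. For 51 genes (17.0%) the ovary was the highest in hybrids and not in the clone, and brain took its place in 45 of them and liver in 6. Over all 18440 genes at 1 CPM or more in hybrid ovary this was so for 5.31%. A lower clone ovary with brain and liver close between the genotypes was the condition for the list, so the direction of this change was fixed by the choice, and nothing is read from the larger share. Brain was at least 10 times ovary for 84 of the 300 genes in the clone and for 23 in the hybrids. This was not counted over all genes, so nothing is read from it.

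Liver was also compared with brain, in the same fit, where ovary libraries entered the filter on low counts and the estimate of the spread. In hybrids 161 of the 300 genes were lower in liver than in brain and 47 higher (53.7% and 15.7%, against 47.4% and 33.5% of all genes tested). In the clone 143 of the 279 were lower in liver and 31 higher (51.3% and 11.1%, against 43.0% and 28.1%). The selection bears on these shares: 114 of the 300 genes were under 1 CPM in both organs, and the windows kept 15.0% of the liver-only genes against 45.2% of the brain-only genes. The smaller share higher in liver is therefore no result about the genes.

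**Figure D5:**
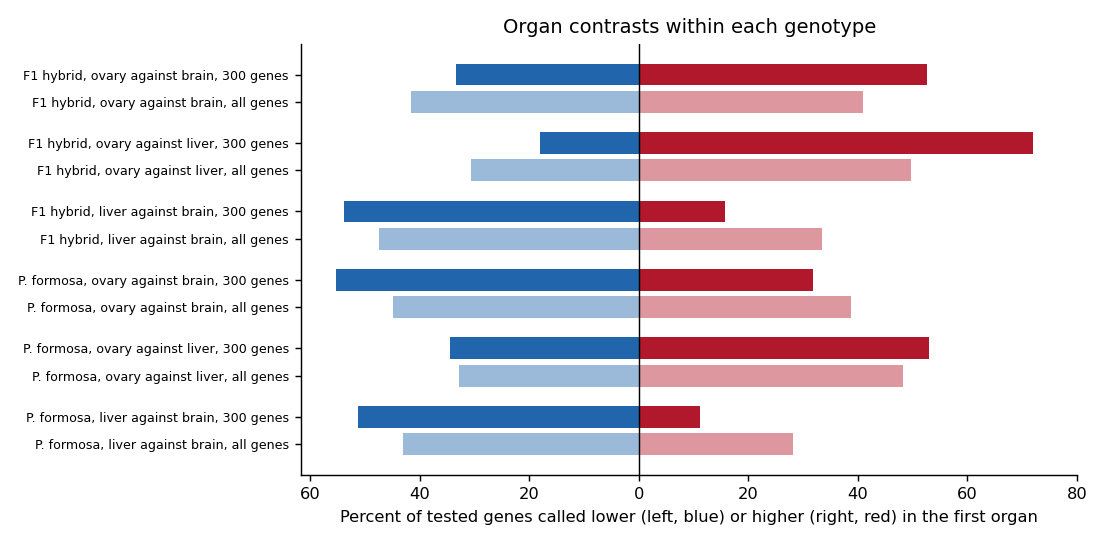
Percent of tested genes called lower (left) or higher (right) in the first organ named, by the edgeR quasi-likelihood test within each genotype, for the 300 genes (279 tested in P. formosa) and for all genes tested. For ovary against brain, 52.7% of the listed genes were higher and 33.3% lower in hybrids (all genes: 41.0% and 41.5%). In the clone, 31.9% were higher and 55.2% lower (all genes: 38.7% and 44.9%). The choice of genes fixes the direction of the shift between genotypes.

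Genotype differences in brain and liver were limited by the selection but not to 0. In brain 214 of the 300 genes passed the filter. Of these, edgeR called 11 lower and 0 higher in the clone, where 4.27% and 7.79% of 22611 genes tested were called. At an unadjusted edgeR p under 0.05, 36 were lower and 7 higher, which was not counted over all genes. Clone brains 4 and 11 stood apart from the other clone brains in an earlier analysis of the same table, which is not shown here. At the median listed gene, clone brains 3, 4, 11 and 12 were at 3.36, 3.56, 2.69 and 3.63 CPM. Without clone brains 4 and 11, 2 of 220 listed genes tested were called lower and 0 higher (all genes: 378 and 527 of 23079). In liver 141 passed, and 7 were called lower and 1 higher, where 22.5% and 24.2% of 17402 genes were called. The brain values of all clone libraries lay under those of all hybrids for 11 genes and over them for 3 (4.30% and 6.10% of the 18440 genes), and the liver values for 1 and 2 (9.29% and 17.6%). Nothing is read from these counts, since the windows bound the same ratios.

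The spread among ovaries of siblings was larger in the hybrids than in the clone at the median gene, a difference that was not tested. By library number the clone ovaries were in 1 series and the hybrid ovaries in 2, as described below. Each series held 2 hybrid ovaries, and the spread within a series was not computed. The part of the series in the hybrid spread was therefore not tested. The choice used these same ovary values, so the spreads are descriptions. With 0.1 CPM added to each value, the highest hybrid ovary was a median of 1.69 times the lowest. It was at least 2 times for 107 of the 300 genes and 3 times for 40. Among clone ovaries, computed alike, the median was 1.52, with 58 and 12 genes past the same limits. The added 0.1 CPM narrows such a range more at the lower clone levels. Genes past these limits were not counted over the whole table, so nothing is read from the counts. The median SD of log2(CPM + 0.1) was 0.347 among hybrids and 0.270 among the clone for the 300 genes, against 0.192 and 0.116 over the 18440 genes at 1 CPM or more in hybrid ovary. The larger spread in hybrids was thus also seen over those genes. The listed genes also had lower levels than those genes, as given above, and the part of level in their spread was not tested.

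Of the 107 genes with at least a 2-fold range among hybrids, the highest value was in fish 12 for 51, in fish 4 for 22, in fish 13 for 19 and in fish 10 for 15. The lowest value was in fish 4 for 30, fish 12 for 28, fish 10 for 27 and fish 13 for 22. No hybrid was low throughout. The widest range was that of the gene numbered 5 by ratio, at 0.391, 21.1, 6.84 and 20.1 CPM in hybrid ovaries 4, 10, 12 and 13. The clone ovaries were at 0.0698, 0.0465, 0.255 and 0.278 CPM. Hybrid ovary 4 was close to the clone for this gene, from 18 reads, while in brain the same fish had 13.7 CPM, within the hybrid range of 7.39 to 26.6 CPM.

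Library numbers form 2 series, with hybrid ovaries 4 and 10 and all clone libraries in the first and hybrid ovaries 12 and 13 in the second. Within the first series, which holds both genotypes, the median ovary ratio of the 300 genes was 2.85, and 237 of them kept a ratio of at least 2. Hybrids of the second series gave a median of 3.18 and 286 genes. The choice used all of these ovaries, so the ratios within each series are descriptions and their direction was fixed. Between hybrid ovaries of the second and first series, a contrast within 1 of the groups used for the choice, edgeR called 7 of the 300 higher and 4 lower in the second (2.33% and 1.33%, against 2.23% and 2.32% of 22201 genes tested, n = 2 each). The calls moved with single libraries left out, but such fits leave 1 ovary in a series, so their counts are not given. In those fits the median log2 difference of the 300 genes ran from -0.057 to 0.042, against -0.006 to 0.009 over all genes. With no ovary left out, the shares called were close to those over all genes.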

How the data were processed

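Brains, livers and ovaries were profiled by sequencing of TruSeq mRNA libraries of RNA with an integrity number above 8, per the labels' protocols. The authors deposited 1 table of raw read counts per gene, which was used as it stands, and 0 columns were left unused. The submitters' processing notes name TopHat2 and featureCounts. The genome build, the annotation, the settings and the use of strand are not given in the sources used here. Any reads of near-identical copies, and of genes that overlap, may therefore be split or shared.

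CPM used plain library totals. Tests across all genes used edgeR 4.0.16 in R 4.3.3 on the counts (filterByExpr, TMM, robust quasi-likelihood fit, Benjamini-Hochberg adjustment at 0.05 over all genes tested), for genotypes within each organ, for organs within each genotype and for hybrid ovaries between library series. Alternatives were DESeq2 1.42.0, its size factors, no filter, a replicate block, the library series as a term and single libraries left out. The p-values cover only the spread among siblings.

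The labels number the fish, so organs with 1 number within a genotype are paired by animal. Deviations of same-fish libraries from their group means correlated across genes with medians of 0.176 (brain with liver), 0.132 (brain with ovary) and 0.0368 (ovary with liver). Libraries of different fish were not correlated in this way, so the pairing rests on the labels alone. Numbers shared by clone and hybrid fish name different animals. Every pair of libraries within a group differed beyond sampling noise (lowest chi-square per degree of freedom 12.7).

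The genes and lists were chosen with earlier results of these data known. No table of names was used here, so the pathway and marker lists prepared for this work could not be run, and only the 2 IDs with the largest ovary ratio are named, by a rule set for that case. Other genes are identified by their rank in ratio or by an extreme level, chosen after their values were seen. Sequences of the genes were not analysed here.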

Additional observations from a re-analysis of the deposited data

Results flagged for a closer look

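In 72 sets of sibling libraries (the summed and median level of the list, and the singled-out genes, in each organ and genotype), 5 had a library far from the others by Dixon's test. No chance rate is set beside this. Many values were near 0, sets with no count could not be flagged, and the genes were singled out for extreme values. Gene 103141447 was at 1.667 CPM in hybrid liver 12 and between 0.1725 and 0.6098 in the other 5. Gene 103133557 was at 0.7671 CPM in clone ovary 4 and between 0.2547 and 0.2793 in the other 3. The gene with the highest clone brain level was at 119.1 CPM in hybrid ovary 12 and between 41.49 and 54.1 in the other 3. The gene with the lowest clone ovary level had all its clone ovary counts in fish 12 (0.04632 CPM, 2 reads) and its only hybrid liver count in fish 13 (0.02393 CPM, 1 read). The test flags any such set, where all other libraries are at 0.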

How the results depend on the processing

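The number of genes meeting the conditions, 316, became 176 with a hybrid ovary mean of at least 5 CPM, 164 with narrower brain and liver windows, and 634 with hybrid ovaries of the second library series only (283 of the 300 among them). Other settings gave 292 to 349 genes apart from 371 and 367 without hybrid ovary 4 or 10, but membership moved more than the count: with 1 CPM added to each mean 332 genes met the conditions and 214 of the 300 were among them. The number kept was 274 with TMM totals, 279 with DESeq2 size factors and 235 with hybrid ovaries of the first series only. After seeing the data, 2 more settings were tried: without clone brains 4 and 11 in the brain ratio 271 of the 300 were kept, and with hybrids of the first series only in all organs 185. The number measured in neither brain nor liver, 114, was 98 at a limit of 0.5 CPM, 134 at 2 CPM and 114 with TMM totals, settings also chosen after seeing the data.

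Numbers shared by clone and hybrid fish do not pair them. With the replicate block in ovary, 228 genes were called lower and 355 higher in the whole table, and 80 of the 300 lower. Only numbers 4 and 12 occur among the ovaries of both genotypes, so that fit compared the genotypes through those numbers alone. With single ovaries left out, 1927 to 3175 genes were called lower in the whole table, the lowest without clone ovary 12, and 263 to 297 of the 300. Without clone brains 4 and 11, 378 genes were called lower and 527 higher in brain in the whole table, and 2 of the listed genes lower. Between library series, single hybrids left out gave 0 to 9 listed genes lower and 1 to 36 higher. The cause of the moves with libraries left out was not tested. The fish as a replicate block changed no organ count of the listed genes by over 1.5 times, nor did DESeq2, its size factors, no filter, single hybrid ovaries left out or single clone fish left out. DESeq2 size factors moved the median of all genes by -0.18 for ovary against brain and -0.12 for liver against brain in hybrids, and by -0.14 for ovary against liver in the clone. In ovary, genes 103141447 and 103133557 stayed between -7.41 and -6.51 on the log2 scale (clone minus hybrid) in all alternatives. Counting error was not assessed gene by gene. Clone ovary means were under 0.1 CPM for 13 genes and under 0.5 CPM for 64, and the fewest reads over the 4 clone ovaries were 2. Both brain means were under 0.1 CPM for 53 genes and both liver means for 139, so their place within the windows also rests on few reads.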
